A study of Mus musculus with 6 samples.

Results

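The proteasome is the protease that degrades ubiquitin-tagged proteins, and its transcripts were examined in mouse liver after a lentiviral vector. The genes were taken by name: every row whose symbol starts with Psma, Psmb, Psmc, Psmd, Psme, Psmf or Psmg followed by a digit, which gave 44 of the 8390 listed genes. Of these, 3 encode the immune catalytic subunits (Psmb8, Psmb9 and Psmb10), and 41 encode other subunits, activators and assembly chaperones. All 44 passed the filter on low values and were tested. Psma8, Psmb11, Psmf1 and Psmg4 were not among the listed genes, so the testis alpha subunit, the thymic catalytic subunit, the PI31 regulator and 1 assembly chaperone are not described.

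Livers of 6 C57BL/6 mice, an inbred strain, were compared by RNA sequencing. The LV group comprised 3 mice that had received 3e8 transducing units of a lentiviral vector (LV), a particle of retroviral origin that enters cells but cannot replicate, into a vein 4 h before the liver was taken. The other 3 mice were untreated, and there was no mock-injected group, so vector and injection cannot be told apart. The labels do not give the sex or age of the mice, the vector's cargo or the origin of the replicates, and p-values here reflect only how much these samples vary, which may be technical.

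The core of the proteasome, the 20S particle, is a barrel of alpha and beta rings. The constitutive catalytic sites lie on Psmb6, Psmb7 and Psmb5, which cut after acidic, basic and hydrophobic residues. Interferons are known to induce Psmb9, Psmb10 and Psmb8, which are built into new particles in place of these subunits and form the immunoproteasome. The 19S cap recognises and unfolds substrates, and the PA28 ring (Psme1 and Psme2) is an alternative cap linked to the production of peptides for MHC class I. Most cells of the body, hepatocytes among them, carry mainly the constitutive form at rest, and immune cells carry much of the immune form.

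Values were whole numbers in a unit that the submitters did not name. They behaved as read numbers scaled for library size and transcript length, so levels of different genes can be set side by side only approximately. The column sums lay between 497295 and 526009 and are not read totals, so the depth is unknown and no counting interval can be given. Hepatocyte markers were abundant (Alb between 41700 and 69728, and 9 of 10 listed). LV replicate 3 and untreated replicate 2 stood apart from the other libraries. Their 7 listed male-biased liver genes summed to 1527 and 1682, against 90 to 350 in the other libraries. Over all 8386 tested genes, limma called 315 up and 73 down after the vector (Benjamini-Hochberg adjusted p under 0.05), and the median log2 fold change was -0.07.

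The sequences before the annotated starts of the immune genes and of their constitutive counterparts Psmb5 and Psmb6 are shown. They were chosen because the immune genes passed the test after the vector and the counterparts did not. Psmb7, the counterpart of Psmb10, had no RefSeq promoter sequence and is not shown. Each run holds the 250 bases before the start, 5′ to 3′ on the strand of the gene, from the RefSeq promoter table (build GRCm38.p6, which differs from the mm9 build of the expression table). Capitals mark an exact match of a motif searched on both strands: GAS, the interferon-gamma-activated site TTCNNNGAA, or ARE, the element TGACNNNGC bound by Nrf factors, here in the forward direction in every run. The runs lie at chr17:34187331-34187580 on the minus strand (Psmb9), chr17:34197945-34198194 on the plus strand (Psmb8), chr8:105938393-105938642 on the minus strand (Psmb10), chr14:54617996-54618245 on the minus strand (Psmb5) and chr11:70525107-70525356 on the plus strand (Psmb6).
Psmb9: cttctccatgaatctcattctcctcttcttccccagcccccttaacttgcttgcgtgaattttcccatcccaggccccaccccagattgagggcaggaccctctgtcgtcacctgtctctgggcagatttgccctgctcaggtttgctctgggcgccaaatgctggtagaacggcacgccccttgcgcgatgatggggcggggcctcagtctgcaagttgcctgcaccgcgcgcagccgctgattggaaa
Psmb8: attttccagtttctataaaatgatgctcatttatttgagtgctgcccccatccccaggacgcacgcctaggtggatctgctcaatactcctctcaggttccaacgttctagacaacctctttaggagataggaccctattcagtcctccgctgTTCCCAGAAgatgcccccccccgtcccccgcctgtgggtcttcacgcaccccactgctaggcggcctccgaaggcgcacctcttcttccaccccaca
Psmb10: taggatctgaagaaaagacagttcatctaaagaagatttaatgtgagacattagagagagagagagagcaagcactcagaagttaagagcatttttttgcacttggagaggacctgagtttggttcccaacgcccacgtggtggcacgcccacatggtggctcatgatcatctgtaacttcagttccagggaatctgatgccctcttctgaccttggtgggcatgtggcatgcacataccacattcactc
Psmb5: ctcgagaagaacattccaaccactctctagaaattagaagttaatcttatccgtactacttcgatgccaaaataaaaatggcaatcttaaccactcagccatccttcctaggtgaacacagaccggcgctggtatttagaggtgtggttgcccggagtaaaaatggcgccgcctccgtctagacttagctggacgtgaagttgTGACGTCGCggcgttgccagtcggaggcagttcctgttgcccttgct
Psmb6: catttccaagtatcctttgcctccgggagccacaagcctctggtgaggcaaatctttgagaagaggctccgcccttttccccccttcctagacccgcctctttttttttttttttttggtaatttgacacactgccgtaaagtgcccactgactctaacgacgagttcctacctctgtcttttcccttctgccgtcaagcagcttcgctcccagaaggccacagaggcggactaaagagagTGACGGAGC

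The Psmb8 run holds a GAS match (TTCCCAGAA), and the Psmb5 and Psmb6 runs each hold an ARE match (TGACGTCGC and TGACGGAGC). The runs of Psmb9 and Psmb10 hold no match to these letters, nor to the IRF element GAAANNGAAA. Psmb9 starts 226 bases from Tap1, the peptide transporter gene, which is read in the opposite direction, so the Psmb9 run also covers the start of Tap1.

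All 3 immune catalytic subunits rose after the vector, and 0 of the 41 other genes passed the test in either direction. Limma called 3.76% of all tested genes higher, and 0.87% lower. At an unadjusted p under 0.05, 6 of the 41 passed, 14.6% against 19.5% of all tested genes. The plot of catalytic and PA28 values by library shows the individual livers.

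Psmb9 (beta1i), which takes the place of Psmb6, had values of 107, 91 and 63 in LV replicates 1, 2 and 3 and of 21, 15 and 19 in untreated replicates 1, 2 and 3. The lowest LV liver was at 3 times the highest untreated one. Its mean went from 18.3 ± 3.06 to 87 ± 22.3 (SD, n = 3), with a log2 fold change of 2.17 ± 0.23 (SE), a 95% interval of 1.58 to 2.75 and an adjusted p of 0.00867 in limma. A fold change here is a difference of mean log2(value + 1). The call was lost without LV replicate 2 (adjusted p = 0.0611) and without untreated replicate 3 (adjusted p = 0.0557).

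Psmb8 (beta5i), which takes the place of Psmb5, had 90, 77 and 50 in the LV livers and 21, 19 and 19 in the untreated ones. The untreated livers were almost alike and the groups did not overlap. Its mean went from 19.7 ± 1.15 to 72.3 ± 20.4 (log2 fold change 1.79 ± 0.23 SE, interval 1.22 to 2.35, limma adjusted p = 0.0142). The call ended when a single liver was removed, whether LV replicate 1 or 2 (adjusted p = 0.0553 and 0.0920) or untreated replicate 1, 2 or 3 (adjusted p = 0.0756, 0.0706 and 0.0858), and the fold change stayed between 1.61 and 2.03 with single livers left out.

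Psmb10 (beta2i), which takes the place of Psmb7, had 133, 98 and 72 in the LV livers and 31, 31 and 40 in the untreated ones. It was the most abundant of the 3 in untreated livers, and the groups did not overlap. Its mean went from 34 ± 5.196 to 101 ± 30.6 (log2 fold change 1.51 ± 0.25 SE, interval 0.89 to 2.13, limma adjusted p = 0.0351). Its call ended when LV replicate 1 or 2, or untreated replicate 1, 2 or 3, was removed (adjusted p between 0.0755 and 0.151) and without LV replicate 3 and untreated replicate 2 together (adjusted p = 0.0986). In size of increase Psmb9, Psmb8 and Psmb10 ranked 104, 143 and 192 of the 8386 genes. Their intervals overlapped, but the 3 genes were measured in the same livers, so the overlap cannot decide their order. The order was not tested within livers.

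**Figure D1:**
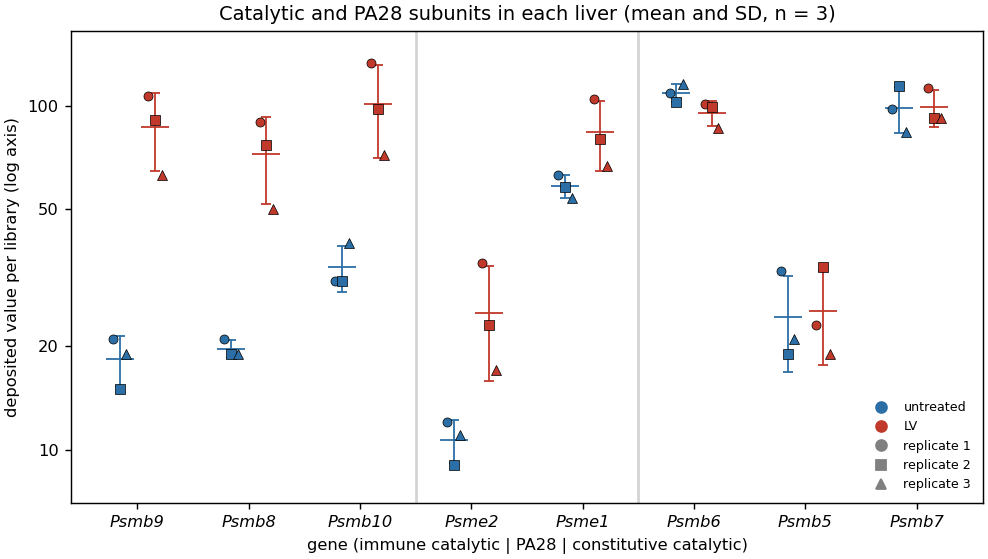
Deposited value of 8 genes in each liver on a log axis, untreated in blue and LV in red, with symbols for replicates 1 to 3 and bars for mean and SD (n = 3). Psmb9, Psmb8 and Psmb10 separate fully between the groups, Psme2 and Psme1 separate by less, and LV and untreated points of Psmb5 and Psmb7 mix, while those of Psmb6 lie just below the untreated ones.

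The constitutive catalytic subunits that these replace did not pass the test. Psmb5 had 23, 34 and 19 among LV livers and 33, 19 and 21 among untreated ones, with a log2 fold change of 0.06 and an interval of -0.68 to 0.79 (adjusted p = 0.951). Psmb7 had 113, 92 and 92 against 98, 114 and 84 (log2 fold change 0.01, interval -0.37 to 0.38). For both genes the groups overlapped. Psmb6 had 101, 99 and 86 among LV livers and 109, 103 and 116 among untreated ones, so every LV value lay below every untreated one (log2 fold change -0.20, interval -0.44 to 0.04, adjusted p = 0.321).

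The balance between immune and constitutive transcripts was next measured within each couple of subunits that share a place in the core. The log2 ratio of Psmb9 to Psmb6 was 0.08, -0.12 and -0.44 in LV replicates 1, 2 and 3 and -2.32, -2.70 and -2.55 in untreated replicates 1, 2 and 3. The difference of the means was 2.36 ± 0.19 (SE). For Psmb8 to Psmb5 the ratios were 1.92, 1.16 and 1.35 against -0.63, 0.00 and -0.14 (difference 1.73 ± 0.30), and for Psmb10 to Psmb7 they were 0.23, 0.09 and -0.35 against -1.63, -1.85 and -1.05 (difference 1.50 ± 0.29). None of the 3 ratios overlapped between the groups. The exact two-sided permutation test gave p = 0.1 for each, also after adjustment over the 3 couples, which is the smallest p that 3 against 3 livers allow and is above 0.05.

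Expressed as a share of the summed values, Psmb9 made up 14.3% ± 1.73 (SD, n = 3) of Psmb9 plus Psmb6 in untreated livers and 47.2% ± 4.62 in LV livers. Psmb10 made up 25.9% ± 5.67 and 49.9% ± 5.298 of its couple. Psmb8 was already at 45.5% ± 5.83 in untreated livers, where Psmb5 was low, and reached 73.8% ± 5.27. In these values the share at rest differed between the couples, as the plot of immune shares shows. It was at most 16.15% for Psmb9 and at least 38.9% for Psmb8. Levels of different genes can be compared only approximately, and pseudogene copies are annotated for Psmb5, Psmb6 and Psmb7, so differences between couples are uncertain. Summed over the 3 genes, immune subunits had 330, 266 and 185 in LV replicates 1, 2 and 3 and 73, 65 and 78 in untreated replicates 1, 2 and 3. The constitutive sum was 237, 225 and 197 against 240, 236 and 221. The 6 catalytic subunits together went from 304 ± 7.57 to 480 ± 93.0, while the 7 listed alpha subunits summed to 304 ± 37.3 and 326 ± 19.6.

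**Figure D2:**
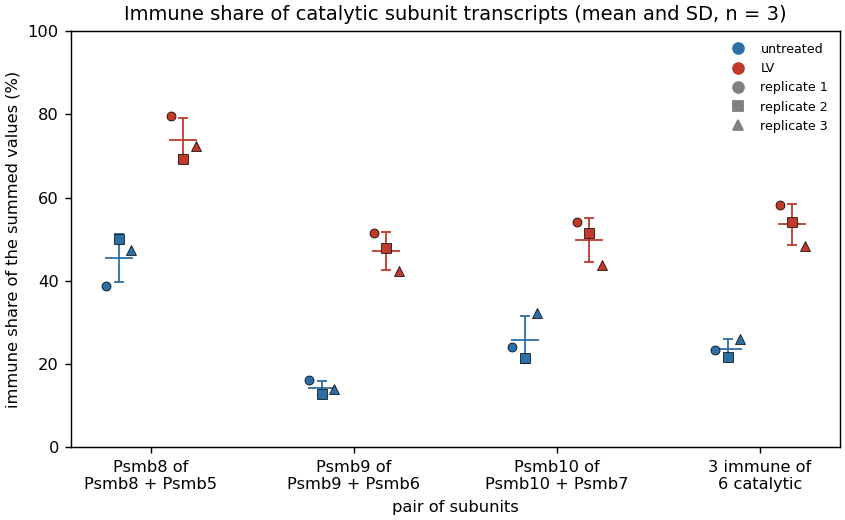
Immune subunit as a percentage of the summed values of each immune and constitutive couple, and of all 6 catalytic genes, for each liver (untreated blue, LV red; bars are mean and SD, n = 3). Every LV liver lies above every untreated liver in all 4 columns, and the immune share of all 6 genes is 48.4% to 58.2% in LV and 21.6% to 26.1% in untreated livers.

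The PA28 subunits, the cap linked to the immunoproteasome, had the next highest increase (Psme2) and a smaller one (Psme1), but neither passed. Psme2 (PA28 beta) had 35, 23 and 17 among LV livers and 12, 9 and 11 among untreated ones. The groups did not overlap, yet LV replicate 3 was closer to the untreated livers than to LV replicate 1 (log2 fold change 1.11 ± 0.27 SE, interval 0.42 to 1.79, limma adjusted p = 0.101). Psme1 (PA28 alpha) had 105, 80 and 67 against 63, 58 and 54, with LV replicate 3 just above the highest untreated liver (0.50 ± 0.18, interval 0.05 to 0.95, adjusted p = 0.215). Over the alternatives tried, the adjusted p of Psme2 lay between 0.0527 and 0.256 and that of Psme1 between 0.110 and 0.398. Psme1 holds an IRF match (TTTCGCTTTC on the gene's strand) at bases 9 to 18 past its annotated start, counted from 0. Neither of the windows of Psme2 holds a match to the 3 motifs. A protein-coding gene of similar name, Psme2b, is annotated in the mouse, and reads shared with it could not be told apart. The other activators did not pass either. Psme3 (PA28 gamma, a nuclear form) had 21 in each LV liver and 17, 22 and 20 in the untreated ones, and Psme4 (PA200) had a log2 fold change of -0.14.

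The alpha ring gates the entry to the core. Of its 7 listed subunits 0 passed, 6 had a positive fold change, and the median was 0.12. Psma5 was the exception in size, with 20, 17 and 14 in LV against 11, 13 and 8 in untreated livers. The groups just missed each other, and the adjusted p was 0.188 (log2 fold change 0.64 ± 0.21 SE, interval 0.11 to 1.16). Psma3 had 9, 6 and 6 against 5, 6 and 3, values low enough that rounding to whole numbers matters (0.51, adjusted p = 0.336). Psma1, Psma2, Psma4, Psma6 and Psma7 had log2 fold changes between 0.00 and 0.15 in size, and their groups overlapped.

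The structural beta subunits Psmb1, Psmb2, Psmb3 and Psmb4, which complete the ring without a catalytic site, had log2 fold changes from -0.11 to 0.01, and 0 of 4 passed. Psmb1 had 107, 107 and 110 among LV livers and 111, 125 and 115 among untreated ones, so the LV values lay below the untreated ones by as little as 1 unit (interval -0.30 to 0.08). Psmb4, the most abundant gene of all 44, had 133, 117 and 108 against 128, 114 and 112.

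In the 19S cap 0 subunits passed in either direction. Of the 6 ATPases that unfold substrates (Psmc1 to Psmc6), 0 passed, 4 had a negative fold change, and all lay between -0.15 (Psmc1) and 0.07 (Psmc6). Psmc3 had 67, 68 and 68 against 72, 74 and 65. The other base subunits, Psmd1 and Psmd2 (scaffolds) and Psmd4 (a ubiquitin receptor), ranged from -0.05 to 0.02. Of the 8 lid subunits 0 passed. Psmd7 had 65, 57 and 52 among LV livers and 46, 50 and 48 among untreated ones (0.26 ± 0.10 SE, limma adjusted p = 0.252), and Psmd13 had 38, 39 and 37 against 43, 43 and 41 (-0.15 ± 0.07, adjusted p = 0.288). These lid subunits separated in opposite directions, by 2 units each at the nearest livers. Psmd14, the deubiquitinase that strips ubiquitin before degradation, had 20, 17 and 20 against 21, 21 and 16 (-0.02).

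Of the 3 base chaperones and the 3 core assembly chaperones 0 passed in either direction. Psmd5, which holds a cap intermediate during assembly, had 12, 10 and 12 among LV livers and 14, 15 and 15 among untreated ones (-0.35 ± 0.10 SE, interval -0.60 to -0.10, limma adjusted p = 0.139). Psmd9 had 13, 14 and 16 against 17, 16 and 20 (-0.28), and Psmd10 (gankyrin) had 10, 7 and 6 against 6, 8 and 7 (0.10). Among the chaperones of the core, Psmg3 had 11, 13 and 12 against 20, 17 and 13 (-0.43 ± 0.17, adjusted p = 0.255), the lowest fold change of the 44 genes. Psmg1 had -0.06 and Psmg2 -0.03. At these low values a step of 1 unit is a visible part of the difference.

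**Figure D3:**
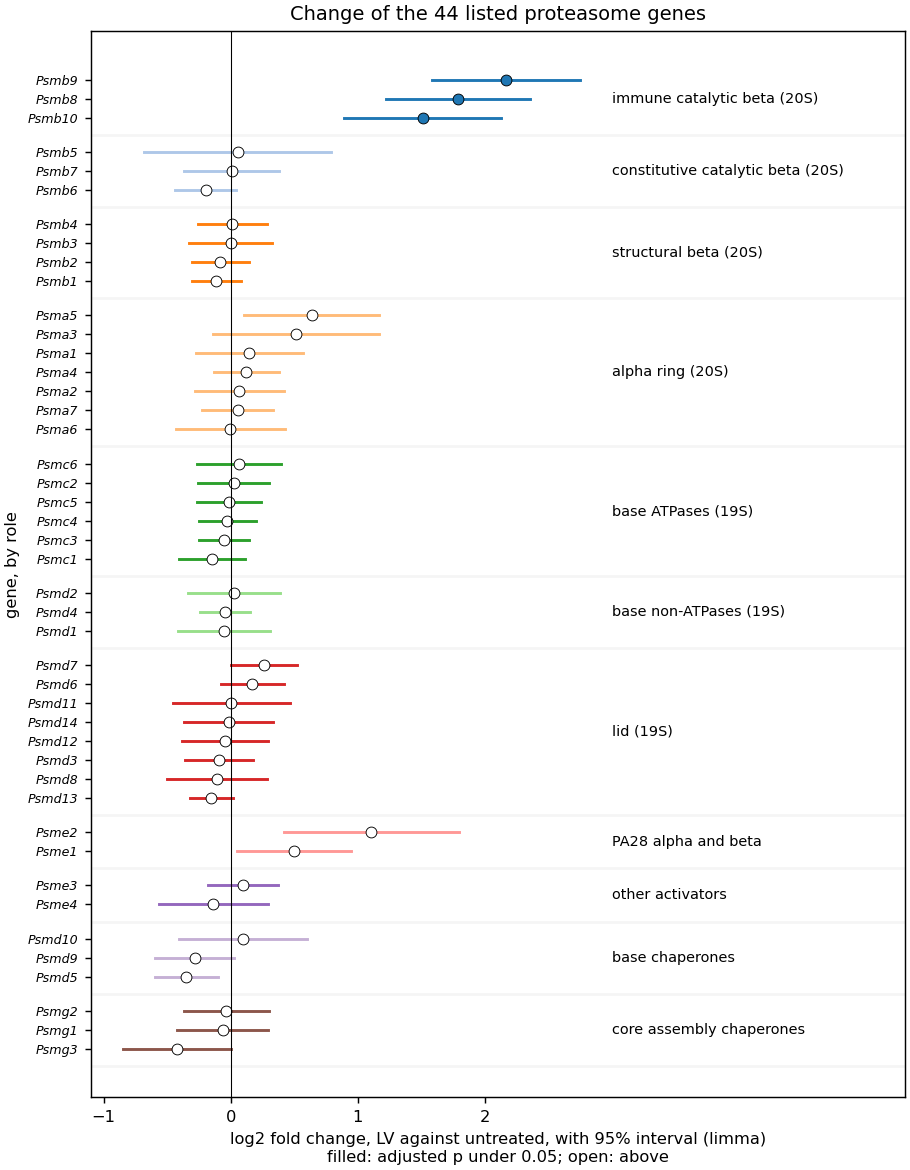
Log2 fold change of the 44 genes between LV and untreated livers with 95% intervals from limma, grouped by role. Filled points (adjusted p under 0.05) are Psmb9, Psmb8 and Psmb10; the intervals of Psme2 (0.42 to 1.79), Psma5, Psme1 and Psmd7 also lie above 0, and those of Psmd5 and Psmg3 below 0, but these genes did not pass after adjustment.

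Seen over the 41 genes other than the immune subunits, 20 had a positive and 21 a negative fold change, with a median of -0.003 (the median of all tested genes was -0.07). Negative fold changes made up 51.2% here and 58% over all tested genes. In 38 of the 41 the 95% interval stayed within a 2-fold change either way, 92.7% against 80.3% of all tested genes; the 3 others were Psma3, Psma5 and Psme2. In 37 of the 41 the upper bound lay below the lower bounds of Psmb8, Psmb9 and Psmb10. The 4 others were Psma3, Psma5, Psme1 and Psme2, which are therefore not separated from Psmb10 by their intervals. The upper bound of Psme2 (1.79) also lay above the lower bounds of Psmb8 (1.22) and Psmb9 (1.58). All genes were measured in the same livers, so overlapping intervals cannot decide whether 2 genes changed by different amounts. Such differences within livers were not tested for these genes. Of the 41, Psma5, Psmd7, Psme1 and Psme2 had LV values all above the untreated ones, and Psmb1, Psmb6, Psmd5 and Psmd13 had them all below. That is 9.76% in each direction, against 8.65% higher and 11% lower over all tested genes, so the share is near the background.

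Apart from the immune subunits and Psme2, levels differed more between subunits than between groups. Averaged over the 6 livers, the alpha subunits ran from 5.83 (Psma3) to 108 (Psma7), an 18.5-fold range, although each occupies the same number of places in the core. The low end rests on Psma3, whose values lay between 3 and 9, where rounding matters. The next lowest alpha subunit was Psma5 (13.8), and levels of different genes can be compared only approximately. Catalytic subunits ran from 24.8 (Psmb5) to 102 (Psmb6), a 4.12-fold range, and the structural beta subunits from 72.2 (Psmb3) to 119 (Psmb4). The ATPases were closer together, from 27.3 (Psmc6) to 69 (Psmc3), and the lid subunits ran from 19.2 (Psmd14) to 66.7 (Psmd3). Assembly chaperones were low, between 7.33 (Psmd10) and 17.7 (Psmg1). In untreated livers Psmb8 and Psmb9 had means of 19.7 and 18.3, near Psmb5 (24.3). In LV livers Psmb9 (87 ± 22.3) and Psmb10 (101 ± 30.6) differed from Psmb6 (95.3) and Psmb7 (99) by less than their own SD. The plot of levels by role shows both groups. Pseudogene copies are annotated for Psma5, Psmb5, Psmb6 and Psmb7 in RefSeq, and no source used here gives the counting method, so their levels are the less certain ones.

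**Figure D4:**
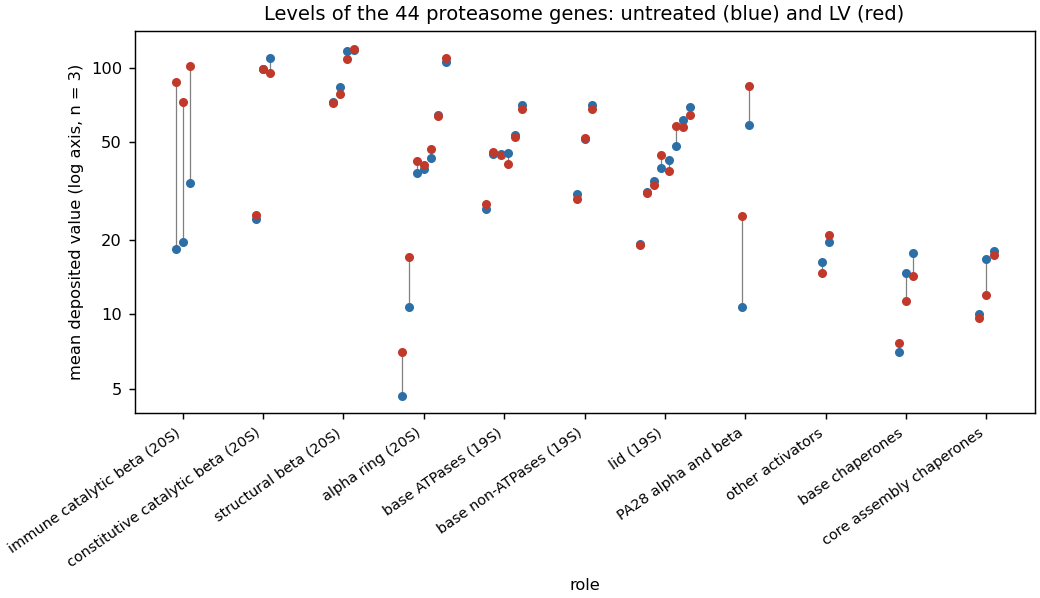
Mean deposited value (n = 3, log axis) of each of the 44 genes in untreated (blue) and LV (red) livers, joined by a line and grouped by role. Long lines are seen for Psmb9, Psmb8, Psmb10 and Psme2, and the blue and red points of the ATPases and lid subunits nearly coincide.

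The LV livers were not alike in their values of the immune and PA28 subunits. LV replicate 1 had the highest and LV replicate 3 the lowest value for each of Psmb8, Psmb9, Psmb10, Psme1 and Psme2. The same order was found in 13 of the 44 genes, these included, 29.5% against 15.2% of all tested genes. Without the immune subunits it was found in 10 of 41 (24.4%), some of which did not rise. Of the called class I and regulator genes, Tap1, Tap2, Tapbp, Irf1 and Stat2 had this order, and Irf7 and Irf9 did not. LV replicate 3 is also the LV library with high male-biased genes. Without it and untreated replicate 2, Psmb9 and Psmb8 remained called (limma adjusted p = 0.0203 and 0.0243). Of 22 leukocyte markers only Ptprc, Lyz2, Laptm5 and Tyrobp were listed. These 4 summed to 90 to 140 in LV and 72 to 93 in untreated livers, and 0 were called. Lyz2, a lysozyme gene of myeloid cells, made up most of each sum and had 86, 101 and 66 among LV livers against 64, 50 and 51 (0.60 ± 0.19 SE, limma adjusted p = 0.174), so that its groups did not overlap. Ptprc, the pan-leukocyte marker, lay between 1 and 3 in every library. The T, B and NK cell and neutrophil markers were not listed. Of 12 Kupffer cell marker entries (some are alternative names of 1 gene) 10 were listed, with sums of 135 to 315 in LV and 248 to 368 in untreated livers. Log2 fold changes of these 10 ran from -1.12 to 0.07, and 0 were called. Vsig4 had 5, 10 and 7 among LV livers against 17, 15 and 18 (limma adjusted p = 0.0693). Clec4f had 19, 49 and 35 against 77, 53 and 53. In both, every LV value lay below every untreated one, and the groups of the other Kupffer markers overlapped. The 10 sinusoidal endothelial markers summed to 96 to 167 against 170 to 196. Their log2 fold changes went both ways, from -1.11 to 1.01, and 0 were called. Clec4g and Oit3 had all LV values below the untreated ones, and Lyve1 had them all above. Over all tested genes, 11% lay fully below and 8.65% fully above. LV replicate 1, with the highest immune subunits, had the lowest of both sums (135 and 96). The part of cell composition in the rise of the immune subunits was not tested, and in whole tissue fewer cells of a type and less RNA per cell cannot be told apart.

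Genes that work with the proteasome but do not carry these names did not pass either. Of 34 list entries (some are alternative names of 1 gene) 27 were listed. Among them 0 were called in limma, against 3.76% of all tested genes called higher and 0.87% called lower. An unadjusted p under 0.05 was found for 1 (Zfand5, 6, 6 and 7 against 8, 8 and 8), against 19.5% of all tested genes. Log2 fold changes ran from -0.35 to 0.30 with a median of -0.03. Pomp, the maturation factor of the core, had 102, 104 and 108 among LV livers and 97, 120 and 104 among untreated ones. Nfe2l1, the transcription factor that raises proteasome genes when the protease is short, had 38, 37 and 36 against 33, 34 and 34 (0.13 ± 0.07 SE, limma adjusted p = 0.327).

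The genes downstream of the immune subunits on the class I route, and regulators of interferon responses, also rose in part. Of 12 listed genes 7 were called higher in limma, against 3.76% of all tested genes, and 10 had an unadjusted p under 0.05, against 19.5%. The list was chosen with earlier results of these data known, so these shares are not a test of the route. It pools class I genes, of which only Tap1, Tap2 and Tapbp were called, with the regulators Irf1, Stat2, Irf7 and Irf9, all called. All 12 had a positive fold change, with a median of 1.37. Tap1, which shares its start region with Psmb9, had 108, 105 and 72 among LV livers and 14, 14 and 13 among untreated ones (2.69 ± 0.17 SE, limma adjusted p = 0.00171). Tap2, the partner of Tap1, had 51, 44 and 33 against 17, 16 and 15 (1.34 ± 0.17, adjusted p = 0.0149, but between 0.0515 and 0.0954 when LV replicate 1 or 2 or an untreated liver was removed). Tapbp, which bridges the transporter to class I molecules, had 120, 98 and 68 against 38, 35 and 31, and its call (adjusted p = 0.0319) ended in the same way (between 0.0847 and 0.148), as also without LV replicate 3 and untreated replicate 2 together (0.0643). Irf1, a factor known to bind the Psmb9 and Tap1 start region, had 92, 81 and 77 against 21, 17 and 15 (2.18 ± 0.15, adjusted p = 0.00178, 0.0526 without LV replicate 3 and untreated replicate 2 together). Stat2, Irf7 and Irf9 were the other genes called, and the call of Irf9 ended without LV replicate 1 or 2 or untreated replicate 1 or 3 (adjusted p between 0.0562 and 0.0677). Of the class I heavy chains, H2-K1 had 769, 817 and 690 against 626, 619 and 625 (0.28, adjusted p = 0.194) and H2-D1 had 285, 332 and 238 against 204, 180 and 182 (0.58, adjusted p = 0.0995). In both the groups did not overlap, without passing the test. B2m, which encodes the light chain shared by class I proteins, had 414, 421 and 533 against 325, 482 and 498 (0.08, adjusted p = 0.853).

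Motif matches were spread over several roles. Of the 44 genes, 37 had a RefSeq promoter window (250 bases before to 50 after the start), 40 windows in all; Psmb1, Psmb2, Psmb7, Psmc3, Psmd3, Psmd7 and Psmg2 had none. An IRF match was found in 4 windows (Psmb3, Psmd4, Psmd9 and Psme1), while 3.44% of all 32851 windows in the table hold one. GAS matches lay in 3 windows (Psmb8, Psmd2 and Psmg1; 8.3% of all windows), and ARE matches in 6 (Psmb5, Psmb6, Psmc6, Psmd9, Psmd12 and Psme4; 12.4% of all windows). The map of motif positions shows their distances from the starts. A match describes letters only, and its absence says nothing on the binding of a factor.

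**Figure D5:**
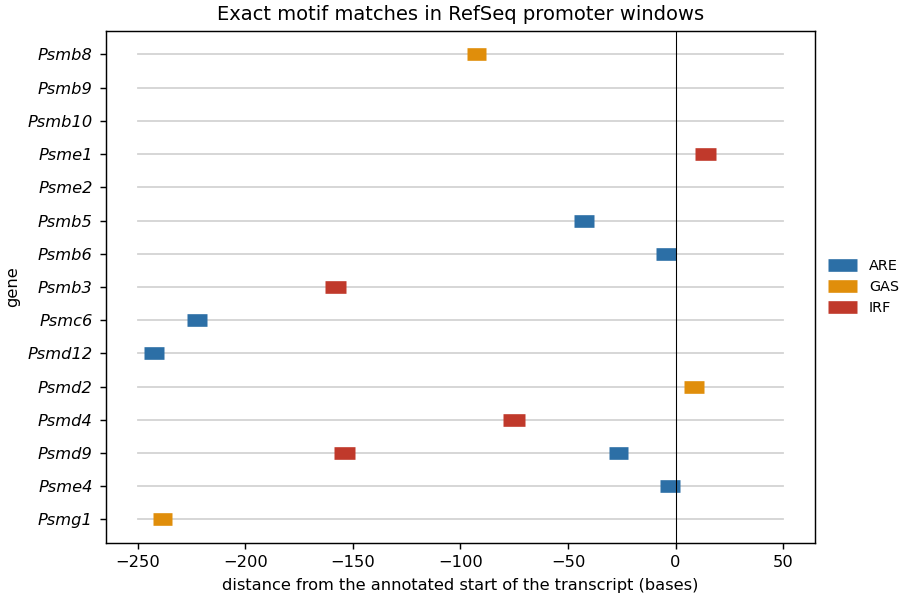
Exact matches of the IRF, GAS and ARE motifs in the promoter windows of 15 genes, by distance in bases from the annotated start (vertical line). The 5 genes Psmb8, Psmb9, Psmb10, Psme1 and Psme2 are at the top: Psmb8 has a GAS match, Psme1 an IRF match just past the start, and the 3 others none.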

How the data were processed

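RNA of 6 whole mouse livers was extracted with QIAzol and sequenced from TruSeq RNA libraries, per the labels' protocols. The submitters' processing notes name the build mm9; no source used here gives the aligner, annotation or counter. The authors deposited 1 table of whole numbers with no unit, treated as a score. Among genes with a mean of 2 to 5 the variance over the mean between replicates averaged 0.246 (LV) and 0.238 (untreated), below that of counted reads. The lowest mean values (first percentile) were 6.17 among the 736 genes with the shortest transcripts and 1 among the 736 with the longest, but 7.80 and 9.20 after multiplying by length in kb.

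Columns were matched to samples by description. The 8386 genes that reached a value of 1 in 3 or more libraries were kept. limma 3.58.1 (R 4.3.3) fitted log2(value + 1) by group with trended variances, and two-sided p-values were adjusted over all tested genes. Ratios were tested with scipy 1.17.1. On data simulated for this comparison (8386 genes, 200 changed, mean of at least 10), the fit recovered 74.8% of those raised by a log2 fold of 1. It recovered 100% of those raised by 2, and 3.90% of calls were false. The simulated noise had the same spread for all genes of a level and no libraries that stood apart. These shares therefore do not give the recovery in the real livers, which may be lower. The members, the gene lists and the naming rule were chosen with earlier results of these data known. By the rule every member may be named, and outside them called genes of the class I and proteasome-associated lists and a fixed few. Zfand5, the 4 leukocyte markers, Vsig4, Clec4f, Clec4g, Oit3 and Lyve1 were named after their values were seen. Nlrc5, part of that rule, was not listed, and 1 gene of that rule is not reported here. Female-biased liver genes (6 of 7 listed, sums of 106 to 487 in LV and 181 to 1108 in untreated livers) and hepatocyte markers (sums of 87188 to 102989 and 89860 to 122296) gave 0 calls. Alternatives were single livers left out, LV replicate 3 with untreated replicate 2 left out, a block for replicate number, a smaller pseudocount (0.1), no filter, a mean of at least 5, 2 other scalings and no trend.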

Additional observations from a re-analysis of the deposited data

How the results depend on the processing

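The direction of Psmb8, Psmb9 and Psmb10 held under all 14 alternatives, while the calls held in 8, 11 and 7 of them. With single livers left out, the log2 fold changes ranged from 1.61 to 2.03, from 2.001 to 2.38 and from 1.29 to 1.73, the called members from 0 to 3 and the called genes of the table from 129 to 429, against 3 and 388 with all livers (174 and 129 genes when LV replicate 1 or 2 was removed, 192 and 203 when untreated replicate 1 or 3 was). Leaving out LV replicate 2 or untreated replicate 3 left 0 members called, and leaving out LV replicate 1 or untreated replicate 1 or 2 left 1 (Psmb9). Without LV replicate 3 and untreated replicate 2 together, Psmb10 had 1.67 and was not called. With a replicate block, log2 fold changes were 1.79, 2.17 and 1.51 for Psmb8, Psmb9 and Psmb10 (adjusted p = 0.0646, 0.0568 and 0.169), and 0 members and 156 genes were called. Deviations of same-numbered livers correlated at 0.278, -0.470 and -0.337. The highest correlation was 0.612, between LV replicate 3 and untreated replicate 2, the libraries that stood apart. With such libraries present, the correlations cannot decide whether the replicate numbers pair the samples. Fewer livers enter, or fewer residual degrees of freedom remain, in all of these settings. The 3 ratios, not recomputed under the filter settings or without the intensity trend, kept their direction in the other alternatives, from 1.33 to 2.50. No other member was called under any alternative, and 23 of the 41 uncalled members took the other sign in at least 1. The unknown depth and the rounding to whole numbers limit what can be said of low members such as Psma3 and Psmd10.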
